A study of Mus musculus with 14 samples.

Results

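A set of 10 genes that mark fibroblasts of the dermis was followed through 14 libraries of bulk RNA from mouse neck skin with and without a topically induced dermatitis. The genes are Pdgfra, Pdgfrb, Prrx1, Dpp4, Pi16, Cd34, Dpt, Sfrp2, Mfap5 and Dcn, taken by symbol from the 35328 genes of the deposited table; the rule reads no measured value, but the set was drawn up with earlier results of these data known. All 10 were among the 20940 genes that passed the filter on low counts. All mice were labelled female C57BL/6J, and each library came from 1 mouse per the series' design text.

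Dermatitis was brought on with MC903 (calcipotriol), an analog of vitamin D that raises an inflammation like atopic dermatitis in mice, put on the shaved neck at 1 nmol daily for 6 days in 12 of the mice. In the injection experiment, 3 mice received MAR1, an antibody to the high-affinity IgE receptor that is used to remove basophils, and 3 received an isotype control antibody, at 20 µg every other day, with 3 injections before MC903 and more during it. In the genetic experiment, 3 mice labelled Pdgfra-CRE Il4ra fl/fl, called cKO here, were set beside 3 Il4ra fl/fl mice. Both of these groups carry the floxed receptor gene, both received MC903, and neither was injected. Cre in the cKO mice is driven by Pdgfra, so deletion is directed to cells that have used the Pdgfra promoter, fibroblasts among them, and not to all skin cells. The last group was 2 untreated mice, with neither MC903 nor antibody. The injected and untreated mice were 6 weeks old and the cKO and fl/fl mice 6 to 7 weeks old. MAR1 was compared with isotype, cKO with fl/fl, each MC903 group with untreated skin, and fl/fl with isotype. Since the comparisons share groups (isotype stands in 3 of them, fl/fl in 3 and untreated in 4), they are given side by side and are not independent.

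Dermal fibroblasts make and remodel the collagen-rich matrix of the skin. Pdgfra and Pdgfrb encode receptor tyrosine kinases for platelet-derived growth factors, and Prrx1 a homeodomain transcription factor of mesenchymal cells. Dpp4 and Pi16 mark fibroblasts of the fascia and of the sheath around vessels, often called adventitial, and Cd34 lies on many dermal fibroblasts but also on endothelial cells and, in mice, on hair follicle stem cells. Dpt and Dcn encode dermatopontin and decorin, which bind collagen fibrils, Mfap5 a glycoprotein of the microfibrils of elastic fibres, and Sfrp2 a secreted modulator of Wnt signalling.

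The promoters of 4 genes are shown because these genes went opposite ways in the antibody experiment: Dpp4 and Dpt were lower with MAR1 than with isotype, Pi16 and Cd34 higher. Each sequence is from RefSeq on GRCm38.p6 and runs 5′ to 3′ from 250 bases before to 50 bases after the start of the gene, at chr2:62412182-62412481 (minus strand) for Dpp4, chr1:164796413-164796712 (plus strand) for Dpt, chr17:29318632-29318931 (plus strand) for Pi16 and chr1:194938571-194938870 (plus strand) for Cd34. Capitals mark a match to TATAAA in Dpp4 and Dpt and to CCAAT in Pi16.
Dpp4: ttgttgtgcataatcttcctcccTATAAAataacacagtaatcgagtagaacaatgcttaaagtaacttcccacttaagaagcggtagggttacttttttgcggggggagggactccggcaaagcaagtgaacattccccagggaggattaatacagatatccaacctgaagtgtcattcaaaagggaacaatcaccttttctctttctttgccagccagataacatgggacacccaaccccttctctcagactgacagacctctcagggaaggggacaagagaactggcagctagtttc
Dpt: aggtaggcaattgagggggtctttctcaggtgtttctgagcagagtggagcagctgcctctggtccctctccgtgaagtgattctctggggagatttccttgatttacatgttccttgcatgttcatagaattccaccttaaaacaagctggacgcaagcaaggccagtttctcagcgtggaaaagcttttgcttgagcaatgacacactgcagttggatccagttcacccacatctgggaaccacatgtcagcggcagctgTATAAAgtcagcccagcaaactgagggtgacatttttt
Pi16: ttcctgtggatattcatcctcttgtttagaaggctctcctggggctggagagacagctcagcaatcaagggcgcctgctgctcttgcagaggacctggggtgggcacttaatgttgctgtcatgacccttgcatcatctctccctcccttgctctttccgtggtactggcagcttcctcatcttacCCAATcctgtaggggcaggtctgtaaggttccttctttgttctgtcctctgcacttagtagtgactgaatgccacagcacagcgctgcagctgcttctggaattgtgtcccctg
Cd34: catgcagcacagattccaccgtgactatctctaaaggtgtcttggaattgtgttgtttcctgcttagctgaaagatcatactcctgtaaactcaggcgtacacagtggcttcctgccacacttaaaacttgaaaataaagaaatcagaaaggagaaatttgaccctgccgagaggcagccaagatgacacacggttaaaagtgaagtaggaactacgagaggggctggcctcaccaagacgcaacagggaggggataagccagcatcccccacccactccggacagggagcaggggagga
Promoters of 7 of the 10 genes were searched, and those of Pdgfrb, Mfap5 and Dcn were not. Each window was searched on both strands for TATAAA (the TATA box), CCAAT (the binding letters of NF-Y) and GGGCGG (those of Sp1). TGANTCA (the AP-1 site), TTCNNNNGAA (a STAT site), TAATTA (a homeodomain core) and the direct repeat bound by the vitamin D receptor were also sought. TATAAA lay 227 bases before the start in Dpp4 and 13 bases after it in Dpt. Of the 32851 promoters searched, which were not all promoters of the genome, 13.6% held TATAAA anywhere. CCAAT lay 64 bases before the start of Pi16, against 37.4% of the promoters searched. TAATTA lay 173 bases before the start of Prrx1, against 5.29% of them. No promoter of the 7 held the Sp1, AP-1 or STAT letters, which 35.7%, 7.81% and 6.95% of the promoters searched held. None of the 7 held the vitamin D receptor repeat, which 0.7% of the promoters searched held.

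Levels are given as CPM, each gene's share of its library's estimated counts scaled to a common library size by TMM, for comparison of 1 gene between libraries and not of genes with each other, since no value is per length. A gene is called at an adjusted p under 0.05 by edgeR's quasi-likelihood test, two-sided, with Benjamini-Hochberg adjustment over all genes tested, and a change is the fitted log2 fold change with its standard error. Depth was uneven. Totals were 5781757 to 10625876 counts in MAR1, 34330783 to 35595261 in isotype, 16501941 to 30830666 in cKO, 45126343 to 48004732 in fl/fl and 37521440 to 55299671 in untreated libraries. Olfactory and vomeronasal receptor genes, which skin should hardly express, took 3.86 to 9.29% of the counts in MAR1 libraries against 0.269 to 0.439% in isotype libraries, and 0.467 to 2.58% in cKO libraries against 0.0479 to 0.0768% in fl/fl libraries. Mitochondrial transcripts took 0.128 to 0.342% in MAR1 against 2.12 to 2.33% in isotype libraries. The fl/fl libraries 1 and 2 held 731 and 10926 CPM of Bpifa2, a salivary protein gene, and cKO library 1 held 69.8 CPM of Ddx3y and 53.3 CPM of Eif2s3y, both Y-linked, against its label of female.

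The labels were checked with the gene deleted in cKO mice and with a gene of the basophils that MAR1 is used to remove. Il4ra, the interleukin-4 receptor chain deleted in cKO mice, was 70.6, 67.7 and 14.5 CPM in cKO libraries, against 214, 145 and 176 CPM in fl/fl libraries, and its log2 fold change of −1.81 ± 0.57 was called (adjusted p = 0.043). That call was lost without any single cKO or fl/fl library (adjusted p 0.052 to 0.24). Mcpt8, the basophil protease, was 18.0, 31.1 and 27.3 CPM in MAR1 libraries, against 6.69, 4.40 and 3.97 CPM in isotype libraries (log2 fold change 2.34 ± 0.78, adjusted p = 0.024). A gene of the cells that MAR1 removes was thus higher in the libraries labelled MAR1, which goes against the label, and every direction given for MAR1 below is that of the libraries so labelled. Il4ra was also lower in them, at 45.7, 23.2 and 8.998 CPM against 195, 178 and 192 CPM in isotype libraries, a log2 fold change of −2.86 ± 0.60 (adjusted p = 0.002). In the uninjected mice Mcpt8 was 21.9, 12.1 and 26.0 CPM in cKO against 3.60, 12.9 and 2.68 CPM in fl/fl libraries. Those groups overlapped and the change was not called (log2 fold change 1.65 ± 0.76, adjusted p = 0.14). The cause of either Mcpt8 difference was not tested.

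**Figure D1:**
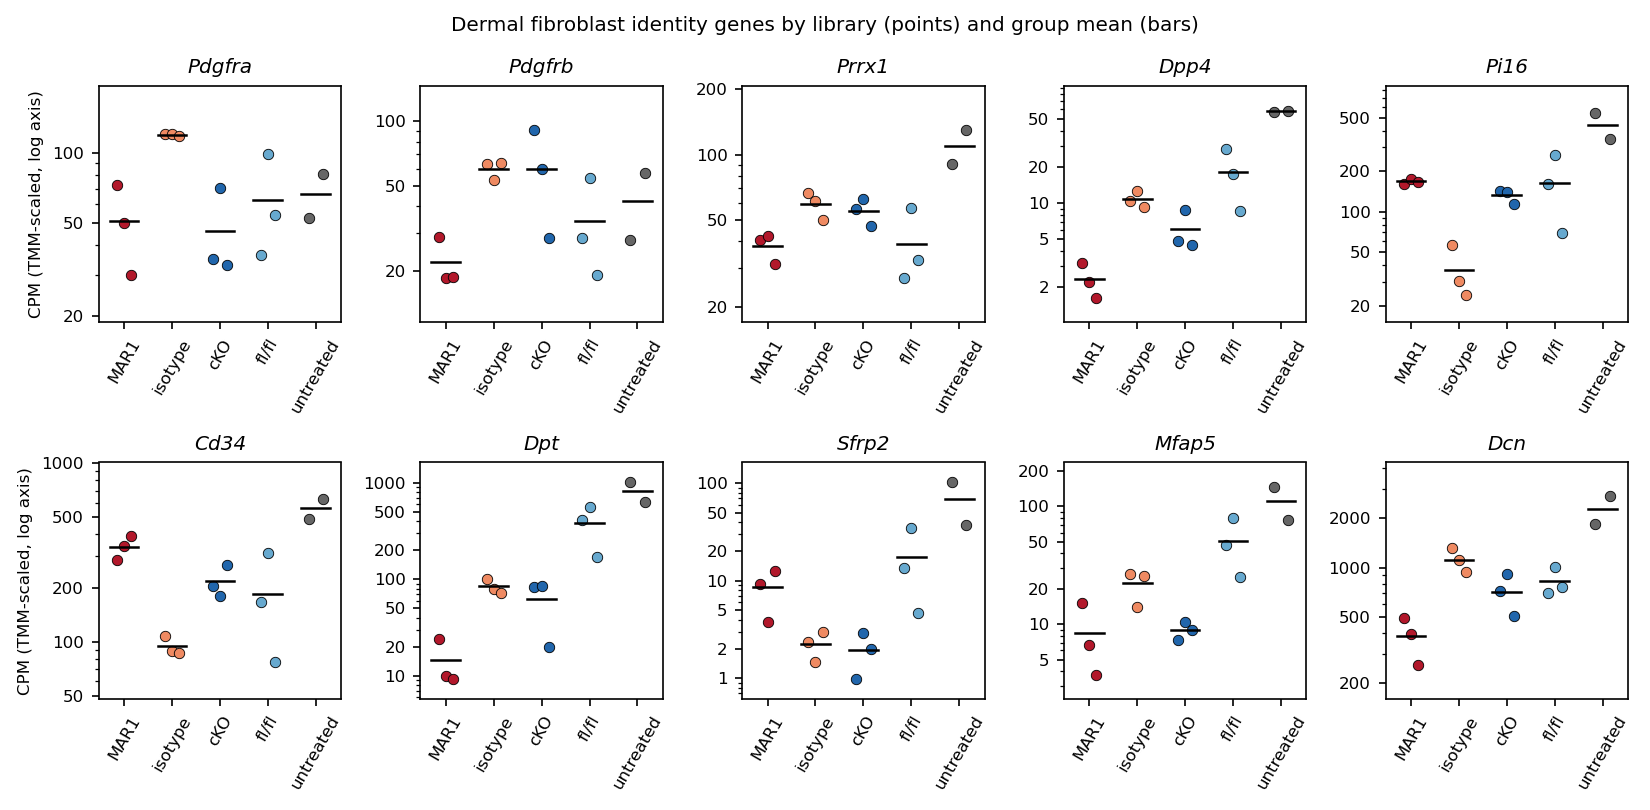
Level of each of the 10 genes in each library (points, CPM on a log axis), with the group mean as a bar; groups run MAR1, isotype, cKO, fl/fl, untreated from left to right. Pi16 and Cd34 are higher in all libraries labelled MAR1 than in all isotype libraries, while Dpp4, Dpt and Dcn are lower in all of them.

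In the libraries labelled MAR1, the 10 genes split: 6 fell and 3 rose against isotype, and Prrx1 was not called. Dpt, Dpp4, Dcn, Pdgfrb, Mfap5 and Pdgfra fell, by between 1.23 and 2.53 on the log2 scale, while Pi16, Sfrp2 and Cd34 rose by between 1.85 and 2.18. These calls stand against a background of 22.6% of all genes called higher and 26.5% called lower. The share of the 10 called higher lies near that of all genes and is no result about the set. The median log2 fold change of the 10 was −1.30, beside 0.00 over all genes tested. Fewer fibroblasts in the skin and less of each RNA per fibroblast cannot be told apart in bulk RNA, here or in any comparison below.

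Pdgfra, the receptor used to mark the whole fibroblast lineage, was 72.6, 49.8 and 30.0 CPM in the libraries labelled MAR1, against 119.7, 121 and 118 CPM in isotype libraries. The isotype mice were nearly alike, and every MAR1 value was below them. The log2 fold change was −1.23 ± 0.42 (adjusted p = 0.027). Pdgfrb, the receptor that pericytes also carry, was 28.7, 18.6 and 18.9 CPM with MAR1, against 62.9, 52.9 and 63.7 CPM with isotype. The groups did not overlap here either, with a log2 fold change of −1.44 ± 0.45 (adjusted p = 0.019). Of 12 pericyte and smooth muscle genes, 2 rose and 3 fell, among them Myh11 and Acta2 of smooth muscle, which fell, and Abcc9 of pericytes, which rose. Their summed level was 323 to 547 CPM in MAR1 and 629 to 744 CPM in isotype libraries with no gene at 0, and their part in the Pdgfrb result was not tested. Prrx1 was 40.6, 42.5 and 31.3 CPM with MAR1 and 66.4, 61.6 and 50.4 CPM with isotype, lower in all 3 MAR1 libraries but not called (−0.64 ± 0.30, adjusted p = 0.089).

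The 3 surface proteins went different ways. Dpp4, a peptidase of the cell surface, was 3.17, 2.21 and 1.65 CPM in the libraries labelled MAR1, against 10.4, 12.7 and 9.36 CPM in isotype libraries, without overlap (−2.19 ± 0.45, adjusted p = 0.0018). The MAR1 values rest on few reads, with an estimated count of 11 in MAR1 library 3. Pi16, a peptidase inhibitor family protein often found on the same fibroblasts as Dpp4, was 161, 176 and 165 CPM with MAR1, against 56.4, 30.4 and 24.1 CPM with isotype. All MAR1 libraries were above all isotype libraries, and the log2 fold change was 2.18 ± 0.44 (adjusted p = 0.0016). Cd34, a sialomucin, was 288, 345 and 388 CPM with MAR1, against 108, 88.7 and 86.9 CPM with isotype, again without overlap (1.85 ± 0.41, adjusted p = 0.0028). Endothelial genes, which mark another cell type that carries Cd34, summed to 1171 to 1463 CPM in MAR1 and 454 to 526 CPM in isotype libraries with none at 0. Of those 10 genes Pecam1 rose, to 1084 ± 178 CPM in MAR1 against 169 ± 1.40 CPM in isotype libraries (SD, n = 3 each), and 4 fell, Tie1 and Kdr among them. Hair follicle stem cell genes summed to 455 to 578 CPM in MAR1 and 387 to 632 CPM in isotype libraries, none at 0, with 2 of 6 higher (Lgr5 by 2.49 on the log2 scale) and 2 lower (Tbx1 and Nfatc1). The part of either cell type in the Cd34 result was not tested.

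Of the matrix genes, Dpt had the largest change of the 10. It was 24.1, 10.05 and 9.30 CPM in the libraries labelled MAR1, against 100.0, 79.9 and 72.8 CPM in isotype libraries. The groups were well apart, with a log2 fold change of −2.53 ± 0.59 (adjusted p = 0.0035). Dcn was 499, 395 and 258 CPM with MAR1, against 1309.9, 1108 and 946 CPM with isotype, also without overlap (−1.55 ± 0.35, adjusted p = 0.0032). Mfap5 was 15.1, 6.63 and 3.75 CPM with MAR1, against 26.9, 14.1 and 25.6 CPM with isotype. It was called (−1.37 ± 0.51, adjusted p = 0.038), although MAR1 library 1 lay above isotype library 2. Sfrp2, the Wnt modulator, was 9.17, 3.82 and 12.6 CPM with MAR1, against 2.34, 1.47 and 3.00 CPM with isotype, higher in all 3 libraries (1.90 ± 0.69, adjusted p = 0.035). These values rest on few reads, with estimated counts of 38 to 107 in MAR1 and 51 to 103 in isotype libraries.

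Over the 10 genes, the groups did not overlap for 9, with 3 above and 6 below, where 32.1% of all genes were above and 36.4% below. The share above lies near that of all genes and is no result about the set. Dpp4, Pi16, Cd34, Dpt and Dcn were called without any 1 library of the 6. Pdgfra was lost without isotype library 1, 2 or 3 (adjusted p = 0.059, 0.064 and 0.059) or MAR1 library 2 or 3 (0.073 and 0.11). Pdgfrb was lost without MAR1 library 2 or 3 (0.067 and 0.068). Sfrp2 was lost without isotype library 1, 2 or 3 (0.082, 0.12 and 0.057) or MAR1 library 1 or 3 (0.067 and 0.12), and Mfap5 without isotype library 1 or 3 (0.10 and 0.097) or MAR1 library 2 or 3 (0.12 and 0.13). RLE scaling in place of TMM moved the median of all genes by 0.59, kept all 10 directions and called 3 of the 10 higher and 3 lower. Pdgfra, Pdgfrb and Mfap5 were no longer called, while over all genes 6347 were higher and 3645 lower in place of 4724 and 5548. The same 3 genes were not called with DESeq2 (adjusted p = 0.14, 0.098 and 0.14) or by edgeR without the untreated libraries (0.1, 0.069 and 0.11). Sfrp2 was lost with the replicate block (0.059). With the receptor gene share of each library as a covariate, none of the 10 was called by edgeR (2 at an unadjusted p under 0.05) and none of all genes was (1542 unadjusted); the share did not overlap between the groups, so it and the antibody cannot be told apart.

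**Figure D2:**
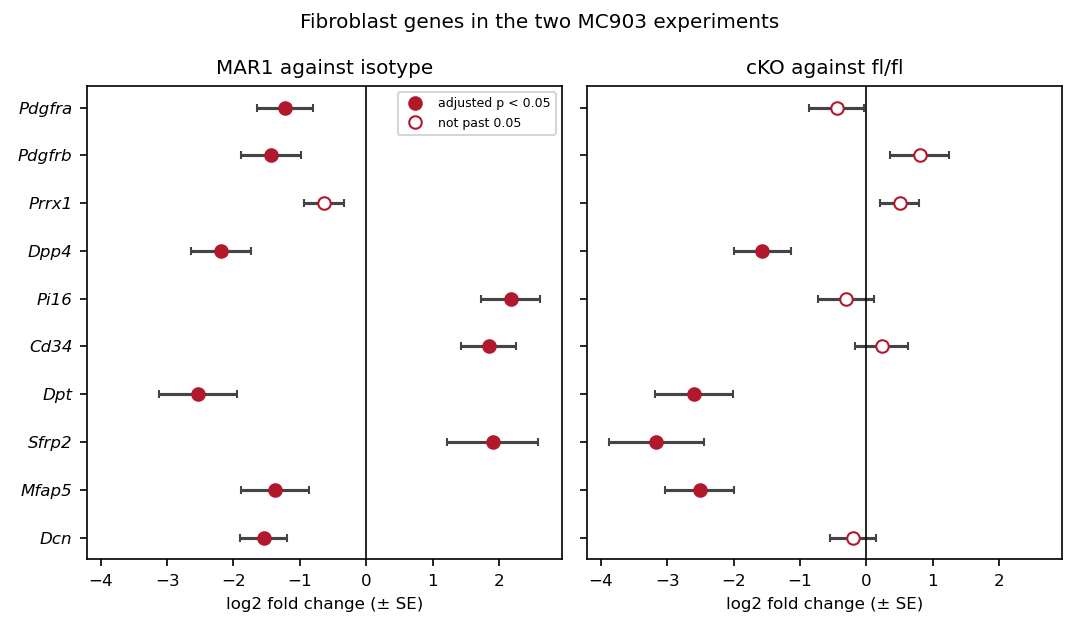
Log2 fold change with its standard error for each gene, in MAR1 against isotype and in cKO against fl/fl; filled points have an adjusted p under 0.05 (edgeR), open points do not. Dpp4, Dpt and Mfap5 lie left of 0 and filled in both panels, while Sfrp2 lies at 1.90 in MAR1 against isotype and at −3.16 in cKO against fl/fl.

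Other fibroblast genes were also called lower in the libraries labelled MAR1, beside 26.5% of all genes. Of 21 further genes of dermal fibroblasts, 13 fell and none rose, with a median log2 fold change of −1.76. They included Mmp2, a collagen-degrading protease, at 22.3 ± 7.01 CPM in MAR1 against 615 ± 50.9 CPM in isotype libraries (SD, n = 3 each, log2 fold change −4.78), the complement inhibitor Serping1 (−3.60) and the collagen cross-linking enzyme Lox (−3.73). Among small leucine-rich proteoglycans other than Dcn, 3 of 8 fell (Bgn, Prelp and Fmod, by 2.02, 2.37 and 1.34 on the log2 scale) and 1 rose. Adventitial genes gave 4 lower of 12 and none higher, with Ly6c1 at −2.63, Dact2 at −5.54 and Ackr3 at −1.14 and a list median of −0.47. This list was chosen for adventitial fibroblasts, which Pi16, a gene that rose, also marks. Whether the same cells carry these genes was not tested. Papillary genes gave 2 lower of 7 (Lrig1 and Col23a1) and reticular genes 2 lower of 8 (Tgm2 and Cygb), with list medians of −0.77 and −0.45. The proteoglycan, adventitial, papillary and reticular shares lie near that of all genes and are no result about those lists.

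Calls among activation genes and the receptors' ligands were all higher. Their shares lie near the 22.6% of all genes called higher and are no result about those lists. Of 10 genes of activated fibroblasts 3 rose and none fell: Loxl2 by 1.46, Timp1 by 1.77 and Inhba by 1.59 on the log2 scale, although the median of the 10 was −0.52. Of the 4 PDGF ligands only Pdgfa, a ligand of the Pdgfra receptor, was called, at 100.2 ± 17.3 CPM in MAR1 against 47.6 ± 7.65 CPM in isotype libraries (SD, n = 3 each, log2 fold change 1.07 ± 0.28, adjusted p = 0.0075). Keratinocyte genes fell in 9 of 10, Col17a1, Krt5 and Dsg3 first among them (median −2.29), and summed to 4137 to 8181 CPM in MAR1 against 22612 to 41181 CPM in isotype libraries. Pan-leukocyte genes fell in 4 of 8 (Tyrobp, Fcer1g and Lyz2 first) and summed to 361 to 720 CPM in MAR1 against 921 to 1163 CPM in isotype libraries. T cell genes rose in 3 of 10 and fell in 1, at 146 to 302 CPM in MAR1 with Cd4 at 0 in library 2, against 22.5 to 36.3 CPM in isotype libraries. Of the rest, adipocyte genes rose in 1 and fell in 1 of 10, and muscle genes rose in 1 of 12 (Pvalb). The part of these in the fibroblast values was not tested.

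In cKO skin, 4 of the 10 genes fell against fl/fl and none rose: Sfrp2, Dpt, Mfap5 and Dpp4, by 3.16, 2.60, 2.51 and 1.57 on the log2 scale. Both PDGF receptors, Prrx1, Pi16, Cd34 and Dcn were not called. Over all genes 12.7% were called higher and 5.98% lower, and the median of the 10 was −0.38 beside 0.03 over all genes tested.

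Sfrp2 was 0.990, 2.90 and 2.00 CPM in cKO libraries, against 13.6, 34.6 and 4.69 CPM in fl/fl libraries. All cKO values were below all fl/fl values, though the fl/fl libraries spanned a wide range (−3.16 ± 0.72, adjusted p = 0.0093). Dpt was 82.5, 85.6 and 20.0 CPM in cKO, against 405, 564 and 168 CPM in fl/fl libraries, without overlap (−2.60 ± 0.58, adjusted p = 0.0086). Mfap5 was 7.32, 10.5 and 8.93 CPM in cKO, against 46.9, 80.1 and 25.3 CPM in fl/fl libraries, again apart (−2.51 ± 0.52, adjusted p = 0.006). These 3 secreted proteins were the genes of the 10 whose cKO and fl/fl libraries did not overlap, where 17.0% of all genes were above and 12.4% below. Dpp4 was 4.88, 8.84 and 4.52 CPM in cKO, against 28.1, 17.6 and 8.61 CPM in fl/fl libraries, with 1 cKO library above 1 fl/fl library (−1.57 ± 0.43, adjusted p = 0.022).

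For the other 6 genes, the receptors and Prrx1 among them, the groups overlapped and no change was called. Pdgfra, whose promoter drives Cre in these mice, was 34.8, 70.2 and 33.0 CPM in cKO and 36.5, 98.3 and 53.8 CPM in fl/fl libraries (−0.45, adjusted p = 0.47). Pdgfrb was 90.6, 59.6 and 28.6 CPM in cKO and 28.6, 54.5 and 19.2 CPM in fl/fl libraries (0.80, adjusted p = 0.21). Prrx1 was 56.5, 62.4 and 46.9 CPM in cKO and 27.2, 57.1 and 32.9 CPM in fl/fl libraries (0.50, adjusted p = 0.24). In all 3 genes values of both groups interleaved. Pi16 was 141, 141 and 113 CPM in cKO and 160.5, 261 and 68.8 CPM in fl/fl libraries (−0.31, adjusted p = 0.64). Cd34 was 206, 181 and 267 CPM in cKO and 168, 313 and 76.9 CPM in fl/fl libraries (0.23, adjusted p = 0.72). Dcn, at 727, 913 and 512 CPM in cKO and 703, 1011 and 767 CPM in fl/fl libraries, gave −0.21 (adjusted p = 0.71). Here the fl/fl libraries lay on both sides of the cKO libraries for Pi16 and Cd34.

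Dpt and Mfap5 were called without any 1 library of the 6, Sfrp2 was lost without cKO library 3 (adjusted p = 0.052), Dpp4 without cKO library 1 or 3 (0.068 and 0.18) or fl/fl library 1 (0.24), and Pdgfrb was called without cKO library 3 (0.045). Leaving out fl/fl libraries 1 and 2, those with Bpifa2, leaves 1 fl/fl library. The log2 fold changes were then −1.21 for Mfap5, −1.15 for Dpt, −0.96 for Sfrp2 and −0.21 for Dpp4. A fit of the cKO and fl/fl libraries alone called Mfap5 and lost Dpt, Sfrp2 and Dpp4 (adjusted p = 0.057, 0.056 and 0.16). It called 1410 of all genes in place of 3908. With the receptor gene share as a covariate none was called by edgeR (0 at an unadjusted p under 0.05), beside 14 of all genes. The values were −0.62 for Dpt, −1.03 for Mfap5, −1.65 for Sfrp2 and −0.84 for Dpp4. The share did not overlap between cKO and fl/fl libraries, so it and the genotype cannot be told apart.

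Among other fibroblast genes, most were not called, beside 5.98% of all genes called lower and 12.7% higher. Reticular genes fell in 2 of 8 (list median −1.13), Cygb by 2.09 and Tgm2 by 1.68 on the log2 scale, and adventitial genes in 3 of 12 (list median −0.88), which were Ackr3 (−1.35), Col14a1 (−2.30) and Cd55 (−1.42). Of the 21 further dermal fibroblast genes 1 fell, Clec3b by 1.65 (median −0.36). No papillary gene of 7 and no proteoglycan of 8 was called by edgeR, with 2 of each at an unadjusted p under 0.05 and 2 of each called by DESeq2. Inhba, an activin subunit, was called higher among the activation genes (1.85) and Pdgfa among the PDGF ligands, at 48.7 ± 11.1 CPM in cKO against 25.6 ± 7.55 CPM in fl/fl libraries (SD, n = 3 each, log2 fold change 0.93 ± 0.28, adjusted p = 0.036).

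Markers of other tissues moved with the same groups. Skeletal muscle genes fell in 7 of 12 (Myh2, Mylpf and Mb first, list median −4.34), and summed to 3386, 30.0 and 367 CPM in cKO against 64808, 18835 and 13753 CPM in fl/fl libraries. T cell genes fell in 6 of 10, with 77.7, 44.6 and 99.7 CPM in cKO against 1258, 221 and 10.7 CPM in fl/fl libraries. Pan-leukocyte genes fell in 6 of 8 and summed to 464 to 678 CPM in cKO against 940 to 4491 CPM in fl/fl libraries. Hair follicle stem cell genes rose in 3 of 6 (Lgr5, Sox9 and Krt15), at 920 to 1357 CPM in cKO against 368 to 716 CPM in fl/fl libraries. Pecam1 rose among 10 endothelial genes, Higd1b rose and Des fell among 12 of pericytes and smooth muscle, and of 10 keratinocyte and 10 adipocyte genes none was called by edgeR (0 and 1 at an unadjusted p under 0.05, none in either by DESeq2). The part of these tissues in the fibroblast values was not tested.

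**Figure D3:**
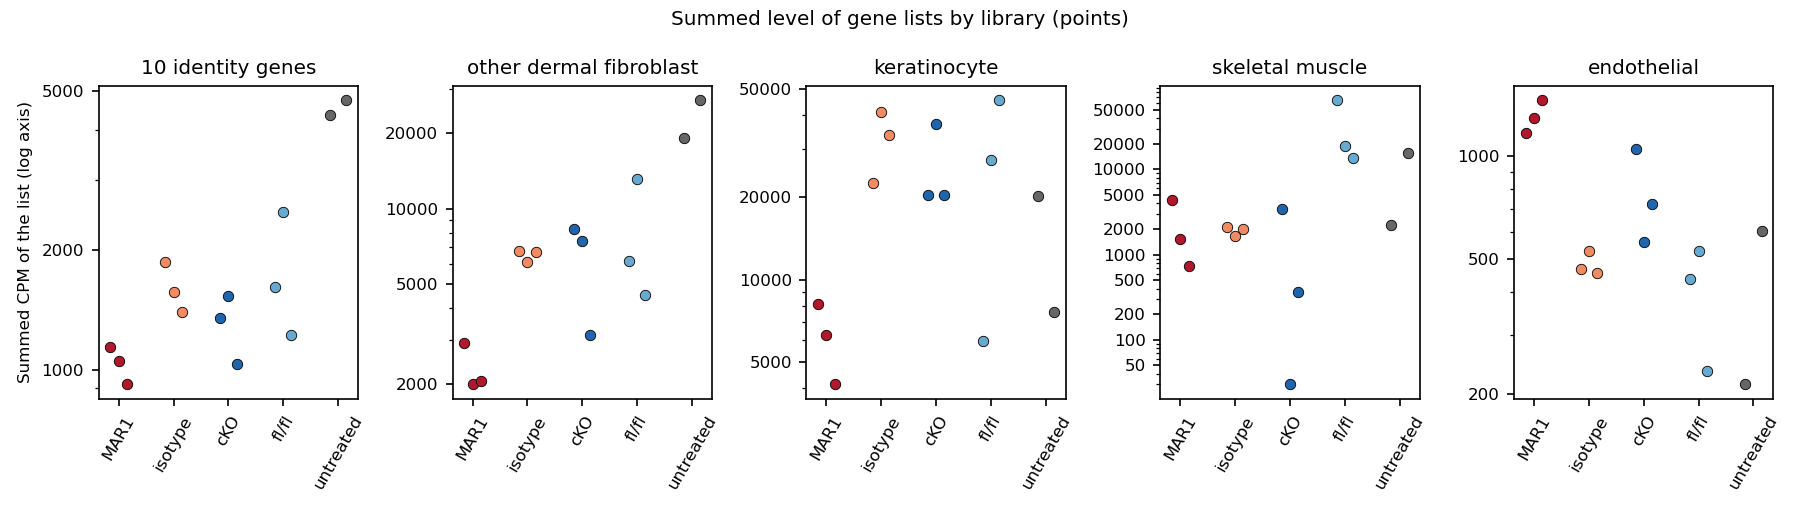
Summed level (CPM, log axis) of the 10 fibroblast genes, the further dermal fibroblast genes, keratinocyte, skeletal muscle and endothelial genes in each library, by group. The sum of the 10 is 919 to 1142 CPM in MAR1, 1400.1 to 1863 in isotype, 1036 to 1535 in cKO, 1226 to 2491 in fl/fl and 4361 to 4748 in untreated libraries; skeletal muscle is 30.0 to 3386 CPM in cKO against 13753 to 64808 CPM in fl/fl libraries.

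Skin with MC903 held less of most of these genes than untreated skin. Together the 10 made up 0.106 to 0.125% of counts in MAR1, 0.140 to 0.187% in isotype, 0.107 to 0.153% in cKO and 0.0921 to 0.233% in fl/fl libraries, against 0.446 to 0.534% in untreated libraries. In isotype skin, which had MC903 and a control antibody, 6 of the 10 fell and none rose against untreated skin, with 1.72% of all genes called lower and 1.35% higher (median of the 10 −2.37, of all genes 0.11). In fl/fl skin only Prrx1 fell and none rose, with 0.95% of all genes lower and 0.769% higher (median −1.45, of all genes 0.00). In the libraries labelled MAR1, 7 fell, with 25.9% of all genes lower and 23.5% higher, and in cKO skin 6 fell, with 2.96% lower and 3.86% higher; none of the 10 rose in either. The medians of the 10 were −2.05 and −1.71, beside −0.02 and 0.06 over all genes.

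**Figure D4:**
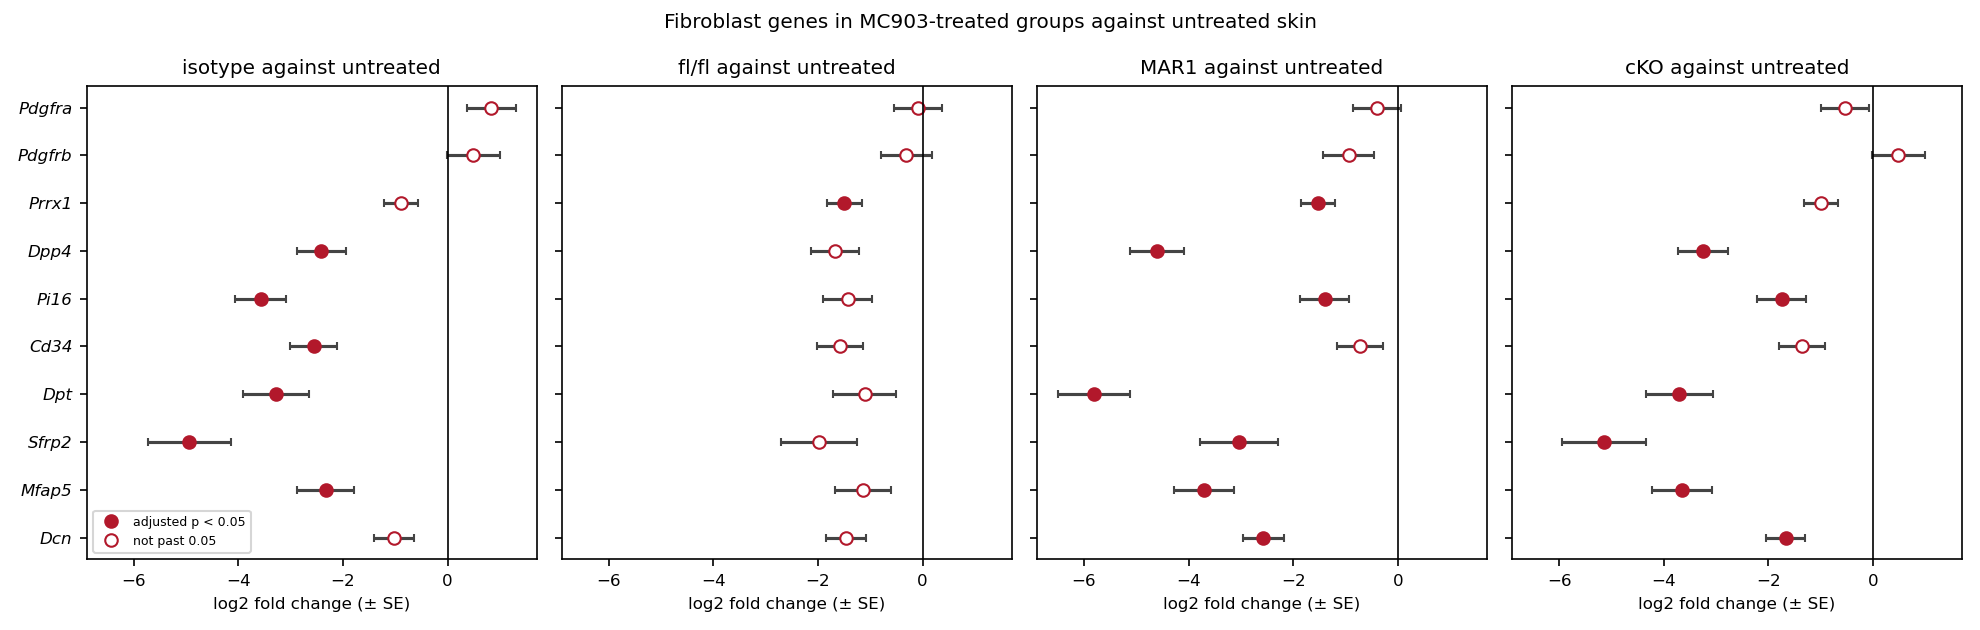
Log2 fold change with its standard error of each gene in isotype, fl/fl, MAR1 and cKO libraries against untreated libraries; filled points have an adjusted p under 0.05 (edgeR). Dpp4, Dpt, Sfrp2 and Mfap5 are filled and below 0 in the isotype, MAR1 and cKO panels, and Pdgfra is open in all 4.

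The 2 untreated libraries, whose names share a number and differ by a suffix, were far apart in several genes. With them summed as 1, isotype skin had 2 of the 10 called lower and fl/fl skin none by edgeR (6 at an unadjusted p under 0.05). Sfrp2 was 2.34, 1.47 and 3.00 CPM in isotype against 102 and 37.3 CPM in untreated libraries, the largest isotype change of the 10 (−4.94 ± 0.80, adjusted p = 0.0076). Pi16 was 56.4, 30.4 and 24.1 CPM in isotype against 536 and 346 CPM in untreated libraries (−3.58 ± 0.49, adjusted p = 0.0032). Dpt was 100.0, 79.9 and 72.8 CPM in isotype against 1009 and 622 CPM in untreated libraries (−3.28 ± 0.63, adjusted p = 0.016). In each of these, every isotype mouse was below both untreated mice, as 8 of the 10 genes and 22.6% of all genes were, with 1 of the 10 and 26.2% of all genes above. Cd34 was 108, 88.7 and 86.9 CPM in isotype against 488 and 628 CPM in untreated libraries (−2.56 ± 0.45, adjusted p = 0.011). Dpp4, the gene on which the untreated mice were closest, was 10.4, 12.7 and 9.36 CPM in isotype against 56.7 and 58.7 CPM in untreated libraries (−2.41 ± 0.47, adjusted p = 0.016). Mfap5 was 26.9, 14.1 and 25.6 CPM in isotype against 147 and 76.7 CPM in untreated libraries (−2.33 ± 0.55, adjusted p = 0.036). These groups did not overlap either.

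The other 4 genes were not called in isotype skin. Dcn was 1309.9, 1108 and 946 CPM in isotype against 1851 and 2710.2 CPM in untreated libraries (−1.02, adjusted p = 0.17), and Prrx1 66.4, 61.6 and 50.4 CPM in isotype against 90.7 and 129.7 CPM in untreated libraries (−0.89, adjusted p = 0.17). Both were lower in every isotype library. The PDGF receptors lay the other way, with Pdgfra at 119.7, 121 and 118 CPM in isotype against 52.2 and 81.3 CPM in untreated libraries (0.84, adjusted p = 0.37) and Pdgfrb at 62.9, 52.9 and 63.7 CPM in isotype against 27.9 and 57.0 CPM in untreated libraries (0.50, adjusted p = 0.63). Pi16 was called without any 1 of the 5 libraries. Dpp4 and Mfap5 were lost without each of the 5 (adjusted p 0.063 to 0.087 and 0.071 to 0.28), Cd34 without isotype library 1, 2 or 3 or untreated library 2 (0.052 to 0.067), Dpt without isotype library 1, 2 or 3 or untreated library 1 (0.07 to 0.093), and Sfrp2 without isotype library 2 (0.052) or untreated library 1 (0.05).

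In fl/fl skin the 1 call was Prrx1, at 27.2, 57.1 and 32.9 CPM in fl/fl against 90.7 and 129.7 CPM in untreated libraries (−1.50 ± 0.33, adjusted p = 0.037). It was lost without fl/fl library 1 or 3 or untreated library 2 (adjusted p = 0.055, 0.052 and 0.26). Dpp4 was called without fl/fl library 1 (0.031) and Cd34 without fl/fl library 2 (0.022). The other log2 fold changes ran from −1.98 (Sfrp2, adjusted p = 0.17) to −0.09 (Pdgfra, adjusted p = 1), with Dcn at −1.46 (0.07), Dpp4 at −1.67 (0.083), Cd34 at −1.59 (0.084) and Pi16 at −1.43 (0.13). Dpt gave −1.11 (0.35), Mfap5 −1.14 (0.28) and Pdgfrb −0.31 (0.83). In every fl/fl library Dpp4, Pi16, Cd34, Dpt, Sfrp2, Prrx1 and Dcn were below both untreated libraries, whether called or not; of all genes 15.4% were below in this way and 12.6% above.

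Against untreated skin, the libraries labelled MAR1 gave their largest fall for Dpt. It was at −5.81 (adjusted p = 0.00016), Dpp4 at −4.60 (0.00013), Mfap5 at −3.71 (0.00036), Sfrp2 at −3.03 (0.0052), Dcn at −2.57 (3e-04), Prrx1 at −1.53 (0.0024) and Pi16 at −1.40 (0.024). Cd34 (−0.71, adjusted p = 0.18), Pdgfrb (−0.94, 0.12) and Pdgfra (−0.39, 0.49) were not called. Pi16 was lost without each of the 5 libraries (adjusted p 0.055 to 0.17), Prrx1 without untreated library 2 (0.16) and Sfrp2 without untreated library 1 (0.073), while RLE scaling, which moved the median of all genes by 0.60 and turned Pdgfra to 0.16, called 6285 genes higher and 3621 lower in place of 4911 and 5433. In cKO skin the fall was largest for Sfrp2 (−5.14, adjusted p = 0.0064), then Dpt (−3.70, 0.01), Mfap5 (−3.65, 0.0063), Dpp4 (−3.24, 0.005), Pi16 (−1.74, 0.041) and Dcn (−1.67, 0.025). Cd34 (−1.36, adjusted p = 0.072), Prrx1 (−0.995, 0.076), Pdgfra (−0.54, 0.45) and Pdgfrb (0.49, 0.53) were not called. There Pi16 was lost without each of the 5 libraries (0.075 to 0.26), Dpt without untreated library 1 (0.061), and Dcn without cKO library 1 or 3 (0.056 and 0.13) or untreated library 1 or 2 (0.087 and 0.28).

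The further fibroblast genes fell in 4 of 21 in isotype (Clec3b by 4.21, Gsn by 1.89 and Pcolce by 2.36 on the log2 scale), 18 of 21 in MAR1 and 6 of 21 in cKO libraries against untreated, with none higher. In fl/fl libraries none of the 21 was called by edgeR (8 at an unadjusted p under 0.05, 4 called by DESeq2). Adventitial genes fell in 4, 1, 11 and 8 of 12 in isotype, fl/fl, MAR1 and cKO libraries; Sema3c, a secreted semaphorin, was the first of them by p in fl/fl skin, at −2.17. Apcdd1, a Wnt inhibitor of the papillary list, fell in all 4 groups, by 2.39, 2.45, 2.95 and 1.70 on the log2 scale in the same order. Tnc, a matrix glycoprotein of tissue repair, rose in all 4, to 293 ± 112 CPM in isotype, 147 ± 77.4 CPM in fl/fl, 131 ± 98.3 CPM in MAR1 and 130 ± 61.1 CPM in cKO libraries (SD, n = 3 each), against 6.15 ± 2.77 CPM in untreated libraries (SD, n = 2). Of all 10 activation genes, 1, 1, 4 and 1 rose and 1, 0, 1 and 1 fell, in that order of groups. The medians of that list were 0.41, 0.18, 0.62 and 0.07. Adipocyte genes, which summed to 979 to 5518 CPM over the MC903 libraries against 7019 to 9904 CPM in untreated libraries, fell in 7 of 10 in isotype, 8 in MAR1 and 3 in cKO libraries, and in fl/fl libraries none was called by edgeR (3 at an unadjusted p under 0.05, none by DESeq2). Their part in the fibroblast values was not tested.

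Both control groups had MC903, but fl/fl skin held more of 3 genes than isotype skin: Sfrp2 (2.96 ± 0.71, adjusted p = 0.039), Dpt (2.17 ± 0.57, 0.045) and Pi16 (2.14 ± 0.44, 0.033) rose, and none fell, with 1.25% of all genes called higher and 3.97% lower. Dpt was 405, 564 and 168 CPM in fl/fl against 100.0, 79.9 and 72.8 CPM in isotype libraries, without overlap, and Pi16 and Sfrp2 likewise were higher in each fl/fl library, where 12% of all genes were above and 20.5% below. The median of the 10 was 0.86, beside −0.10 over all genes. T cell genes rose in 5 of 10 (median 4.34) and summed to 10.7 to 1258 CPM in fl/fl against 22.5 to 36.3 CPM in isotype libraries, and skeletal muscle genes rose in 4 of 12 (median 3.99), at 13753 to 64808 CPM in fl/fl against 1676 to 2095 CPM in isotype libraries. Adipocyte genes rose in 2 of 10, at 979 to 5518 CPM in fl/fl against 1282 to 1720.0 CPM in isotype libraries, and pan-leukocyte genes in 2 of 8, at 940 to 4491 CPM in fl/fl against 921 to 1163 CPM in isotype libraries; no gene of these lists was at 0, and their part in the fibroblast values was not tested. Genotype, injections, age and experiment differ together between these groups and cannot be told apart. The 3 calls were lost without fl/fl library 1 or 2 or any isotype library (adjusted p 0.061 to 0.1 for Pi16, 0.11 to 0.15 for Dpt and 0.066 to 0.11 for Sfrp2). Those fits called 0 to 77 of all genes in place of 1094. In a fit of these groups alone none of the 10 was called by edgeR (5 at an unadjusted p under 0.05), beside 460 of all genes.

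Whether the cKO change differs from the MAR1 change was tested as 1 contrast, the cKO log2 fold change minus the MAR1 one. It was called for 3 of the 10: Sfrp2 at −5.07 ± 0.99 (adjusted p = 0.023), Pi16 at −2.49 ± 0.61 (0.032) and Pdgfrb at 2.24 ± 0.64 (0.047). Over all genes 6.13% were called higher and 1.82% lower, and the median of the 10 was 0.28 beside 0.41 over all genes. Sfrp2 fell in cKO skin and rose in the libraries labelled MAR1, while Pi16 rose with MAR1 and Pdgfrb fell with MAR1 but neither was called in cKO. Dpt, which fell in both, gave −0.06 (adjusted p = 1), and Dpp4, which also fell in both, 0.62 (0.52). Mfap5, called lower in both as well, gave −1.13 (adjusted p = 0.3). A p that misses the threshold does not show that Dpt, Dpp4 or Mfap5 changed alike in both. Sfrp2 was lost without fl/fl library 2 (adjusted p = 0.05), isotype library 1, 2 or 3 (0.052, 0.067 and 0.06) or MAR1 library 3 (0.064). Pi16 was lost without cKO library 1 or 2, fl/fl library 2, MAR1 library 2 or 3 or any isotype library (0.051 to 0.09), and Pdgfrb without cKO library 1, fl/fl library 2, MAR1 library 2 or 3 or any isotype library (0.055 to 0.11). Prrx1 and Dcn were called without cKO library 3 (0.028 and 0.024) or fl/fl library 3 (0.039 and 0.043), and Cd34 without fl/fl library 3 (0.025). With RLE scaling, which moved the median of this contrast over all genes by −0.46, 437 genes were higher and 467 lower in place of 1284 and 382, and Pdgfrb was lost (1.78, adjusted p = 0.091). Pdgfrb was also lost without the untreated libraries (0.071) and with the replicate block (0.058). Without fl/fl libraries 1 and 2, which leaves 1 fl/fl library, the differences were 3.35 for Pdgfrb, −0.95 for Pi16 and −2.85 for Sfrp2.

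Set in order of mean CPM, most of the 10 were highest in untreated skin. Dpp4, Dpt and Mfap5 ran untreated, fl/fl, isotype, cKO, MAR1. For Dpp4 the fl/fl and isotype libraries overlapped and all other neighbours were apart, for Dpt the groups from isotype down overlapped, and for Mfap5 only isotype and cKO were apart. Dcn ran untreated, isotype, fl/fl, cKO, MAR1, with untreated and MAR1 apart from their neighbours. Pi16 ran untreated, MAR1, fl/fl, cKO, isotype, and Cd34 untreated, MAR1, cKO, fl/fl, isotype, so isotype skin was lowest in both. In Pi16 the MAR1, fl/fl and cKO libraries overlapped in turn, and in Cd34 the cKO, fl/fl and isotype libraries did. Sfrp2 ran untreated, fl/fl, MAR1, isotype, cKO, with overlap between fl/fl and MAR1 and between isotype and cKO. Prrx1 ran untreated, isotype, cKO, fl/fl, MAR1, and only untreated was apart from its neighbour. Pdgfra ran isotype, untreated, fl/fl, MAR1, cKO and Pdgfrb isotype, cKO, untreated, fl/fl, MAR1; isotype was apart from its neighbour for Pdgfra, and for Pdgfrb all neighbours overlapped.

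The make-up of the summed counts of the 10 genes, which does not move with library scaling, also differed between groups. Dcn made up 28.1 to 43.7% of the sum in MAR1 libraries against 67.6 to 70.6% in isotype libraries, while Cd34 made up 25.2 to 42.2% in MAR1 against 5.65 to 6.21% in isotype libraries and Pi16 14.1 to 18.0% in MAR1 against 1.72 to 3.03% in isotype libraries. In the genetic experiment Dpt made up 1.93 to 6.11% in cKO libraries against 13.7 to 25.1% in fl/fl libraries, and Mfap5 0.542 to 0.864% in cKO against 2.06 to 3.22% in fl/fl libraries. Prrx1 took 4.06 to 4.53% in cKO and 1.68 to 2.69% in fl/fl libraries, and Cd34 11.8 to 25.8% in cKO and 6.28 to 12.6% in fl/fl libraries, which overlapped. A share shows unequal change among the 10, not which gene changed.

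**Figure D5:**
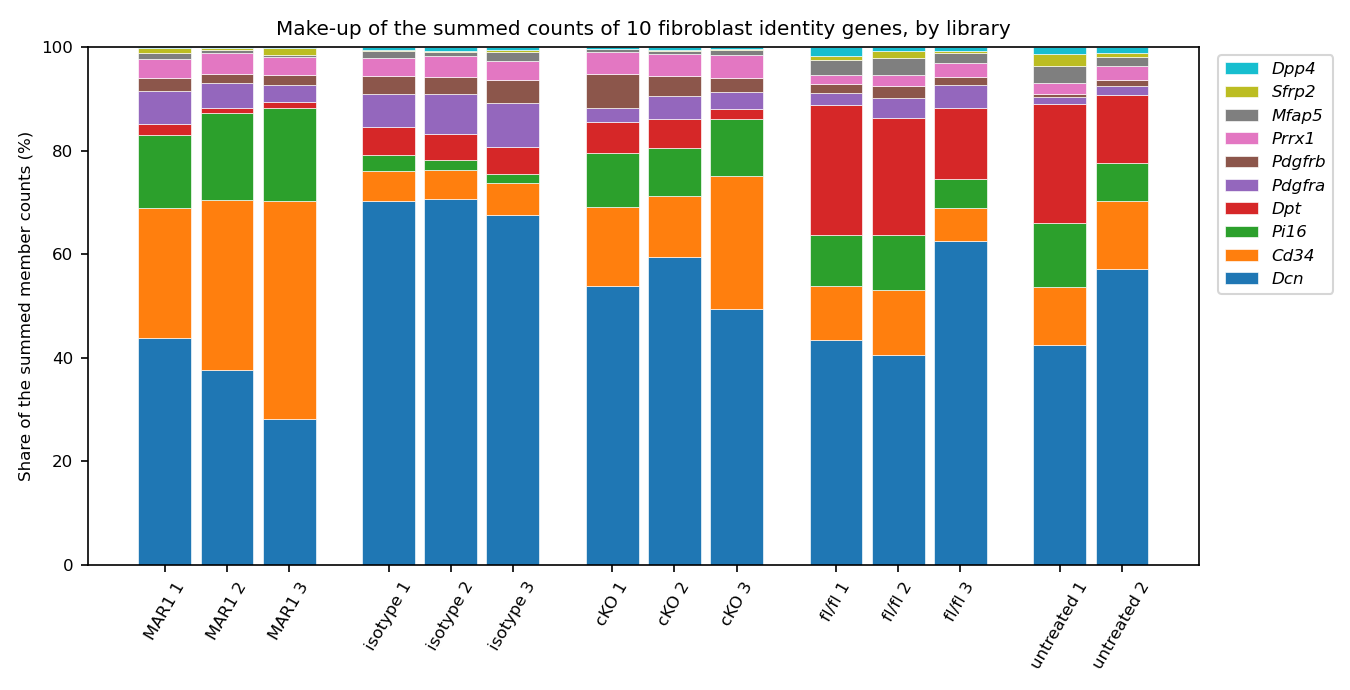
Share of the summed counts of the 10 genes taken by each gene (%, stacked bars, 1 bar a library), with libraries ordered MAR1, isotype, cKO, fl/fl, untreated. Cd34 and Pi16 take a larger part in MAR1 than in isotype libraries, and Dpt a smaller part in cKO than in fl/fl libraries.

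Across the 14 libraries the 10 genes fell into unlike patterns, given here as a description, since libraries of 1 group share treatment and depth. The correlation (Pearson's r of log2 CPM) of each gene with the mean of the other 9 was 0.853 for Dpp4, 0.852 for Dcn, 0.834 for Mfap5, 0.820 for Dpt, 0.732 for Prrx1 and 0.583 for Sfrp2. It was 0.372 for Pi16, 0.272 for Pdgfra, 0.272 for Pdgfrb and 0.260 for Cd34. The closest pairs were Dpp4 with Dpt (0.947), Dpt with Mfap5 (0.919), Dpp4 with Mfap5 (0.910), Dpp4 with Dcn (0.895) and Pi16 with Cd34 (0.891). Of the 13184 other genes averaging 5 CPM or more, those whose log2 CPM followed the mean of the 10 most closely over the 14 libraries were Serpinh1, a collagen chaperone (0.963), Fap, a surface protease of fibroblasts (0.950), Aoc3, an amine oxidase (0.940), Ldhd (0.940), Enpp5 (0.934), Maob (0.933), Epdr1 (0.932) and Ogn, a small leucine-rich proteoglycan (0.932).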

How the data were processed

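The authors deposited 1 table of estimated counts per gene, with decimals and no normalization, for 14 libraries of polyA RNA from neck skin, snap frozen and cryosectioned per the labels' protocols. Salmon 1.2.1, DESeq2 1.44.0 and the build GRCm39 are named per the submitters' processing notes, which give no roles. The estimated counts were rounded and tested with edgeR 4.0.16 (R 4.3.3, limma 3.58.1): TMM scaling, filterByExpr, robust quasi-likelihood fit of 5 group means over all 14 libraries, which share 1 estimate of spread (9 residual degrees of freedom). The standard error is the log2 fold change divided by the square root of its F. Every adjusted p in the text is from this fit unless another is named. It measures the spread between libraries, each taken as 1 mouse per the series' design text. Depth, 5781757 to 55299671 counts a library, sets the precision of low values, above all in MAR1 libraries. No replicates agreed within counting noise.

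The 10 genes and the 15 gene lists were chosen with earlier results of these data known. Genes named from a list are up to 3 with the smallest edgeR p, plus the 8 most like the 10 in pattern. Alternatives were RLE scaling, DESeq2 1.42.0, no filter, 1 CPM in at least 3 libraries, fits of the groups compared or without untreated libraries, the pair of untreated libraries added together, a replicate block, the receptor gene share as a covariate, and each library left out. Leaving out fl/fl libraries 1 and 2 together, which leaves 1 fl/fl library, was added after seeing the data. The code was tested on simulated data. Promoters are RefSeq's on GRCm38.p6, used for their letters and not joined to any coordinate of the counts.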

Additional observations from a re-analysis of the deposited data

Results flagged for a closer look

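In 3 of the 10 genes the change in cKO against fl/fl skin differed from the change in MAR1 against isotype skin by edgeR's test of the difference itself (Benjamini-Hochberg over all genes tested). Sfrp2 differed by −5.07 on the log2 scale (SE 0.99, adjusted p = 0.023): it was lower in all 3 cKO than in all 3 fl/fl libraries (−3.16) and higher in all 3 libraries labelled MAR1 than in all 3 isotype libraries (1.90). Pi16 differed by −2.49 (SE 0.61, adjusted p = 0.032), at −0.31 in cKO against fl/fl and 2.18 in MAR1 against isotype skin. Pdgfrb differed by 2.24 (SE 0.64, adjusted p = 0.047), at 0.80 in cKO against fl/fl and −1.44 in MAR1 against isotype skin. The Pdgfrb difference was lost with RLE scaling (adjusted p = 0.091), without the untreated libraries (0.071) and with the replicate block (0.058). With 1 library left out at a time, in 12 fits, the call was lost in 5 for Sfrp2, 8 for Pi16 and 7 for Pdgfrb. Without fl/fl libraries 1 and 2, which leaves 1 fl/fl library, the differences were 3.35 for Pdgfrb, −0.95 for Pi16 and −2.85 for Sfrp2.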

How the results depend on the processing

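Over all alternatives and 8 comparisons, 940 values of a gene kept direction and side of the threshold, 177 lost the call, 24 gained it and 39 changed sign. The number of the 10 genes called moved past 1.5-fold as follows. In fl/fl against untreated (1 called) it was 2 with RLE scaling, 5 with DESeq2, 5 without fl/fl libraries 1 and 2, and 0 in a fit of those groups alone, with the untreated libraries summed or with the replicate block (4, 6 and 6 at an unadjusted p under 0.05 by edgeR). In cKO against fl/fl (4 called) it was 1 in a fit of those groups alone, 0 with the receptor share as covariate and 0 without fl/fl libraries 1 and 2. In fl/fl against isotype (3 called) it was 1 with the replicate block and 0 in a fit of those groups alone, with the covariate or without fl/fl libraries 1 and 2. In cKO against untreated (6 called) it was 3 in a fit of those groups alone, and in isotype against untreated (6 called) 2 with the untreated libraries summed. The covariate left 0 called by edgeR in MAR1 against isotype, cKO against fl/fl, MAR1 against untreated, cKO against untreated and fl/fl against isotype (2, 0, 2, 6 and 3 unadjusted). Without fl/fl libraries 1 and 2, 0 were called in the difference of the cKO and MAR1 changes (5 unadjusted).

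Leaving out 1 library of a group of 3, the number called was 5 to 8 in MAR1 against isotype, 4 to 5 in cKO against untreated, 0 to 2 in fl/fl against untreated, 0 to 3 in fl/fl against isotype, 1 to 2 in isotype against untreated and 0 to 6 in the difference. Over all genes it was 7343 to 10260, 407 to 1942, 342 to 430, 0 to 3176, 108 to 132 and 1 to 4864, in the same order. The ranges below also take in each untreated library left out. Ranges of log2 fold change that crossed 0 were, in cKO against fl/fl, −0.51 to 0.085 for Pdgfra, −0.36 to 0.20 for Pi16 and −0.21 to 0.32 for Dcn; −0.82 to 0.28 for Pdgfra in cKO against untreated; −0.56 to 0.25 for Pdgfra and −0.83 to 0.26 for Pdgfrb in fl/fl against untreated; −0.74 to 0.46 for Pdgfra and −1.37 to 0.15 for Pdgfrb in MAR1 against untreated; −0.085 to 0.87 for Dpp4 in fl/fl against isotype; and −0.31 to 0.68 for Dpt in the difference. None of these genes was called there.

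Other sign changes were of genes not called. Pdgfra in MAR1 against untreated was 0.16 with RLE scaling, 0.16 with DESeq2 and 0.97 with the covariate. The covariate also gave, in cKO against fl/fl, 0.65 for Pdgfra, 0.20 for Pi16, −0.56 for Cd34 and 0.34 for Dcn, with 0.17 for Pdgfra in cKO against untreated and 0.044 for Dpt in the difference. Without fl/fl libraries 1 and 2 the values were 0.065 for Pdgfra, 1.23 for Pi16 and 0.19 for Dcn in cKO against fl/fl, −0.62 for Dpp4, −0.60 for Cd34 and −0.13 for Mfap5 in fl/fl against isotype, and 1.37 for Dpt and 0.16 for Mfap5 in the difference. The cause of these changes was not tested. Libraries with the same replicate number did not deviate together (correlations −0.33 to 0.10). The numbers are those of the sample titles, and with so few libraries in a group this cannot exclude a pairing of mice. With the replicate block Pdgfra was 0.037 in fl/fl against untreated. The block fit called 8, 4, 5, 6, 4 and 2 of the 10 genes in MAR1 against isotype, cKO against fl/fl, isotype against untreated, MAR1 against untreated, cKO against untreated and the difference. Over all genes it called 9572, 3063, 253, 8820, 390 and 537. Few reads lay behind Dpp4 and Mfap5 in MAR1 libraries and behind Sfrp2 in MAR1, isotype and cKO libraries. The estimated counts of Sfrp2 were 38 to 107, 51 to 103 and 28 to 89 there.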
